A study of Mus musculus with 23 samples.

Results

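The unstimulated, niacin-free cultures labelled Gpr109a-/- were compared with those labelled wild type, 3 libraries against 3, which is 6 of the 23 libraries of the series. They were chosen by their labels alone. CD4+ T cells (CD45+CD3+CD4+CD8-) were sorted from mouse spleen and kept for 72 hours with interleukin 2 at 30 IU/ml and nothing else. Both groups carry C57BL/6 as their strain background, and no treatment other than interleukin 2 distinguishes or joins them. The other 17 libraries received 5 mM niacin, anti-CD3/CD28 stimulation, or both, under the same 2 genotype labels. The labels do not say whether libraries of a group came from separate mice, how the allele was made, or whether equal library numbers mark one mouse. Every p-value here therefore reflects only how far libraries lie apart, which may be technical. In the main fit the spread came from all 23 libraries of the series.

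Gpr109a is the older name of Hcar2, the receptor through which niacin, butyrate and beta-hydroxybutyrate act on cells. It couples to inhibitory G proteins and lowers cyclic AMP, and it is best known from fat cells, myeloid cells and the gut lining. T cells kept in interleukin 2 without a T cell receptor signal survive and stay largely at rest. This comparison therefore shows how libraries of the 2 labels differ without activation and without added ligand.

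Hcar2 (ENSMUSG00000045502, GRCm38 chr5:123863570-123865499, minus strand) came out against the labels. The knockout-labelled libraries 1, 2 and 3 held 17, 26 and 7 Hcar2 reads, and the wild-type-labelled libraries held 1, 0 and 0. The level was 0.741 ± 0.236 CPM, read counts scaled to library size (SD, n = 3), under the knockout label and 0.0138 ± 0.0239 CPM under the wild-type label. The ratio of summed Hcar2 reads, scaled to summed library size, was 52.8, with an exact 95% counting interval of 9.06 to 2129. Every knockout-labelled library lay above every wild-type-labelled one, and the gene did not pass edgeR's quasi-likelihood test after Benjamini-Hochberg adjustment (adjusted p = 0.409). In the other 3 culture conditions together, Hcar2 had no read in the 9 wild-type-labelled libraries and 60, 17 and 42 reads per condition in the knockout-labelled ones. Hcar2 was called in stimulated cells with niacin (edgeR adjusted p = 0.0443), and not in unstimulated cells with niacin or stimulated cells (0.196 and 0.314). The table does not show where in the gene the reads lie, so they cannot tell whether they come from a deleted part. All directions below are those of the labels.

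The wild-type-labelled libraries held 20636274 to 22806292 counts. The knockout-labelled libraries 1 and 2 held 25521210 and 23217924 counts, and the knockout-labelled library 3 held 13205565. That last library stood apart. Its log2 CPM correlated with the other 5 libraries at 0.941 to 0.948, while every other pair reached 0.972 to 0.987. Among 9628 genes at a mean of 5 CPM or more, 935 lay over 2-fold above all 5 other libraries and 673 over 2-fold below them, against at most 2 and 10 for any other library. Transcripts of the 935 genes had a median GC content of 56.3% and those of the 673 genes 44.4%, against 49.3% over all 9628. Its column name also lacks a tag that the other 22 columns carry. The calls and the gene lists below are therefore also given without it. Over the 9628 genes, the SD of log2 CPM between libraries had a median of 0.42 under the knockout label. It was 0.13 without library 3 and 0.18 under the wild-type label. In the groups of the other culture conditions it was 0.099 to 0.223. The main fit shared 1 spread per gene over all groups, so it may understate the spread of the knockout-labelled group. T cell genes were high in all 6 libraries, for example Cd4 at 400.3 to 653 CPM. Pax5, Csf1r and Adgre1, which mark B cells and macrophages, stayed under 1 CPM. Some other genes of the B cell list were higher, with Ighm at 408 to 1103, Bank1 at 3.60 to 7.93 and Cd79a at 2.64 to 5.85 CPM. Of the myeloid and dendritic cell list, Cd74 measured 14.7 to 61.6 and H2-Ab1 2.79 to 14.9 CPM. Cd8a lay between 0.124 and 3.55 CPM, and Cd8b1 between 7.02 and 28.9 CPM.

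**Figure D1:**
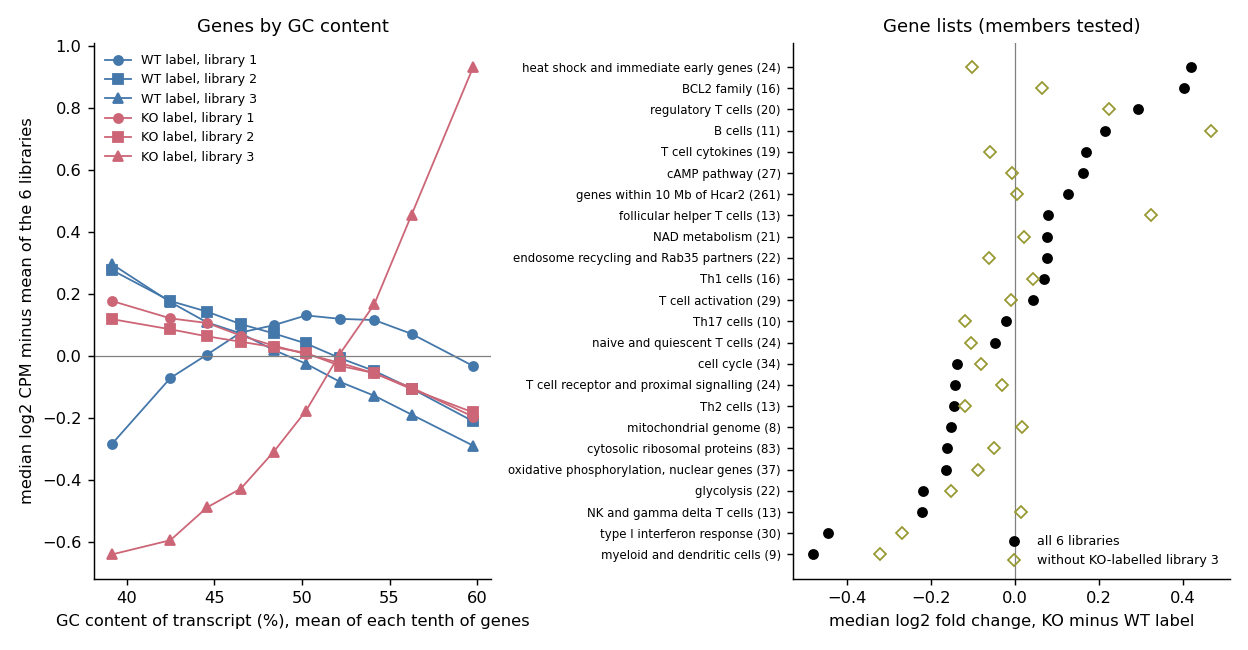
Left: for each of the 6 unstimulated libraries, the median over genes of log2 CPM minus the mean of the 6 libraries (y axis), in 10 equal bins of genes ordered by transcript GC content (x axis, percent). Right: median log2 fold change (knockout label minus wild-type label) of each gene list, with all 6 libraries (black) and without the knockout-labelled library 3 (open). That library's line climbs from -0.64 in the bin of lowest GC content to 0.93 in the highest, and several list medians move towards 0 without it.

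Of 16882 genes tested, edgeR called 6 higher and 1 lower under the knockout label at an adjusted p under 0.05. That is 0.0355% higher, 0.00592% lower and 0.0415% in all. At an unadjusted p under 0.05 there were 1760 genes (10.4%). Without the knockout-labelled library 2 the call rule passed 342 genes, 310 of them higher, and with no filter on low counts 673. The 6 genes called higher fall into 2 sets. Rab35 and Hip1r lie on chromosome 5 within 10 Mb of Hcar2, and Gm8730, Gm9625, Gm14165 and Rplp0-ps1 are processed copies of Rplp0, itself a gene of that stretch, placed on 4 other chromosomes. Without the knockout-labelled library 3, 7 of 16814 genes (0.0416%) were called: Hip1r was lost and Dgat2, an enzyme of triglyceride synthesis named here after its value was seen, came in.

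**Figure D2:**
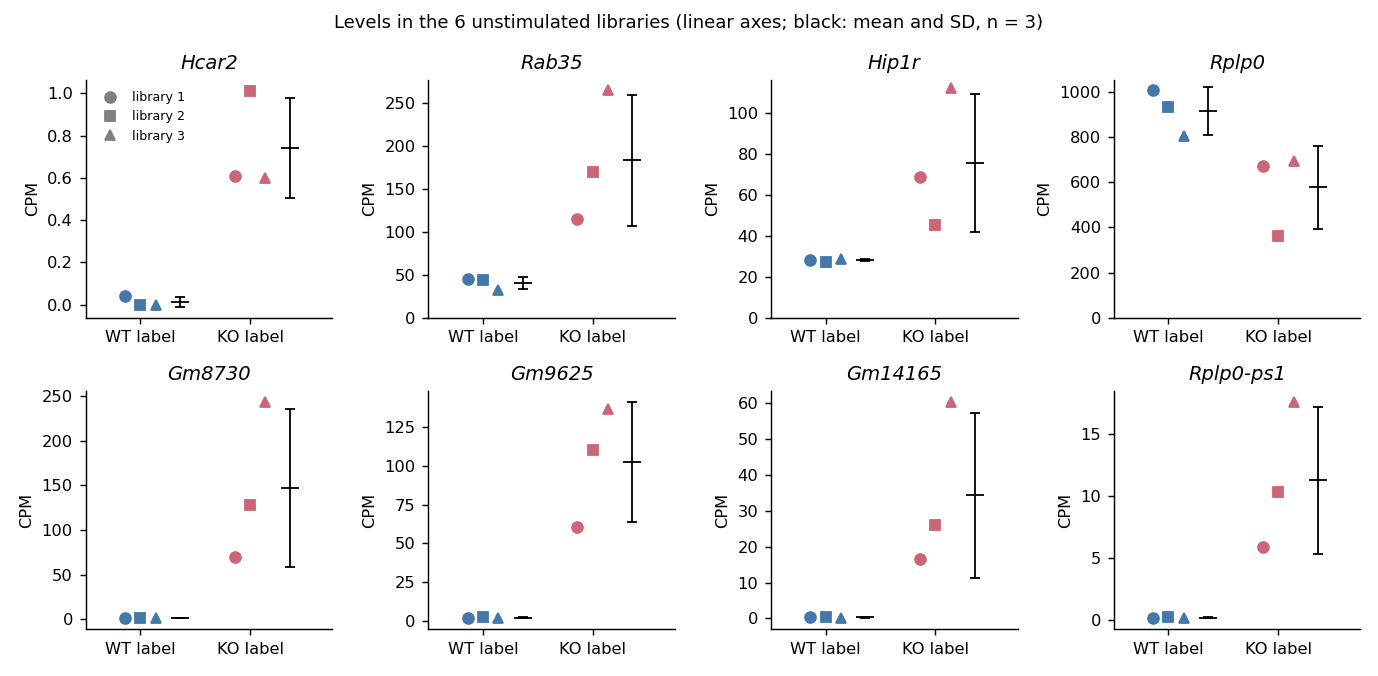
Level in CPM (y axes, linear) of Hcar2, Rab35, Hip1r, Rplp0 and its 4 called copies in each unstimulated library, by genotype label. Symbols mark library numbers and black bars the mean and SD of 3 libraries. The groups do not overlap in any of the 8 panels.

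Rab35 (chr5:115631908-115647736, plus strand) encodes a small GTPase that returns membrane proteins from endosomes to the cell surface and helps form the T cell's contact with its partner cell. It measured 115.0, 169 and 266 CPM in the knockout-labelled libraries and 44.8, 43.9 and 31.7 CPM in the wild-type-labelled ones. The groups did not overlap, and library 1 was the lowest of the knockout-labelled set. Rab35 rose by 2.19 ± 0.27 on the log2 scale (edgeR adjusted p = 0.000199), or 4.57-fold in the means, and by 1.82 without library 3. This call used all 23 libraries in the fit, and Rab35 was not called when only the 6 compared libraries were fitted. It was the single call among 22 tested genes of endosome recycling and Rab35 partners, a list built around Rab35 that holds it by design. The median log2 fold change of that list was 0.08, or -0.06 without library 3. The most abundant others were Arf6 at 1.03 ± 0.36, Tbc1d10c, a GTPase-activating protein, at 0.41 ± 0.20, and Rab8a at -0.18 ± 0.11 on the log2 scale, none called. Arf6 stood at 1415 CPM in library 3 and at 281.6 to 367 CPM in the other 5.

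Hip1r (chr5:123973628-124005558, plus strand), an adaptor that links clathrin coats to actin, starts 0.11 Mb from the start of Hcar2 and overlaps Vps37b on the opposite strand. Its level was 68.8, 45.5 and 112 CPM under the knockout label and 28.3, 27.3 and 28.4 CPM under the wild-type label. The wild-type-labelled libraries were nearly equal, and library 3 was the highest of all. Hip1r rose by 1.43 ± 0.25 on the log2 scale (edgeR adjusted p = 0.0243). Without library 3 the log2 fold change was 1.03 and the call was lost (adjusted p = 0.116). It was also lost without any 1 of the wild-type-labelled libraries.

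Rplp0 encodes a protein of the ribosome's stalk. Retrotransposed copies of its messenger RNA sit elsewhere in the genome and differ from it by few bases, so that short reads can move between them. Gm8730 (chr8:102864845-102865798) was 98.7% identical to the Rplp0 transcript over 954 aligned bases, Gm9625 (chr13:67810246-67811200) 97.5% over 954, Gm14165 (chr2:152353615-152354566) 97.4% over 952 and Rplp0-ps1 (chr3:93278141-93279073) 95.6% over 933. Of all 50-base stretches, the length of 1 read, 39.4% in Gm8730, 31.1% in Gm9625, 12.0% in Gm14165 and 11.4% in Rplp0-ps1 also occur exactly in Rplp0. All 4 copies share a base that differs from Rplp0 at 7 of its 951 coding positions. The first of these is T72C, counted from the A of the start codon. Over coding positions 47 to 96, this 1 base separates Rplp0 from the copies. The 4 copies are identical over these positions, so this stretch does not tell them apart from each other. Sequences are written 5′ to 3′ from the GENCODE vM21 transcripts (GRCm38) with the differing base in capitals.
Rplp0: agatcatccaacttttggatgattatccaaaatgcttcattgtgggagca
Gm8730: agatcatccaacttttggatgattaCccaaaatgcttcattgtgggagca
Gm9625: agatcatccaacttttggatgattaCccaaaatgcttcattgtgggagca
Gm14165: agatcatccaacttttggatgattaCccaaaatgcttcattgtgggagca
Rplp0-ps1: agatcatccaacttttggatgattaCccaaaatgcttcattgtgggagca

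Gm8730 measured 70.3, 128 and 243 CPM in the knockout-labelled libraries and 1.78, 1.70 and 1.52 CPM in the wild-type-labelled ones. Gm9625 measured 60.5, 111 and 137 CPM against 1.95, 2.03 and 1.61 CPM. Every knockout-labelled library lay far above every wild-type-labelled one for both copies, with library 1 the lowest of the knockout label. The less abundant copies, Gm14165 at 16.5, 26.1 and 60.4 CPM against 0.414, 0.378 and 0.0847 CPM, and Rplp0-ps1 at 5.89, 10.4 and 17.6 CPM against 0.166, 0.236 and 0.169 CPM, kept that order of libraries. On the log2 scale Gm8730 rose by 6.46 ± 0.43, Gm9625 by 5.78 ± 0.36, Gm14165 by 6.85 ± 0.56 and Rplp0-ps1 by 5.85 ± 0.51 (SE), with edgeR adjusted p between 6.74e-09 and 8.43e-07. Under the knockout label the copies ranked by level in the order of their identity to Rplp0. In the wild-type-labelled libraries Gm9625 lay above Gm8730.

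Rplp0 itself moved the other way. It measured 674, 364 and 695 CPM under the knockout label and 1012, 937 and 805 CPM under the wild-type label, without overlap, and its log2 fold change of -0.67 ± 0.23 was not called (edgeR adjusted p = 0.409). Rplp0 and its 4 copies summed to 827, 639 and 1154 CPM under the knockout label and to 1017, 941 and 808 CPM under the wild-type label. The sums overlapped between the labels, while the division of the reads did not. The copies took 18.5% of these reads (exact 95% counting interval 18.03 to 19.04) in knockout-labelled library 1, 43.1% (42.3 to 43.8) in library 2 and 39.7% (38.9 to 40.6) in library 3. In the wild-type-labelled libraries they took 0.424% (0.346 to 0.513), 0.462% (0.372 to 0.566) and 0.419% (0.333 to 0.522). How reads that match several places were counted is not known, so levels of Rplp0 and its copies are uncertain and the 4 calls are not independent of each other.

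The division of Rplp0 reads was similar in the other cultures. All 12 wild-type-labelled libraries of the series put 0.419 to 0.515% on the copies. Knockout-labelled library 1 put 18.6% there with stimulation and 18.8% with stimulation and niacin, against 18.5% without either. Knockout-labelled libraries 2 and 3 put 42.0 to 43.0% there in each of the other 3 conditions, so library 1 lay between the labels wherever it was sequenced.

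Rab35, whose start lies at -8.23 Mb from that of Hcar2 with Rplp0 at -8.30 Mb, showed the same order of libraries. Knockout-labelled library 1 measured 115.0, 118 and 133 CPM of Rab35 in the unstimulated, stimulated, and stimulated plus niacin cultures, libraries 2 and 3 measured 169 to 266 CPM over all 4 conditions, and the wild-type-labelled libraries 31.7 to 56.7 CPM. Oasl2, an interferon-induced gene at -8.97 Mb from Hcar2, named here after its values were seen, ran in the opposite sense: unstimulated, it measured 43.8, 0.390 and 0 CPM in knockout-labelled libraries 1 to 3 and 116, 55.7 and 125 CPM in the wild-type-labelled ones (log2 fold change -2.71 ± 1.05, edgeR adjusted p = 0.409). Oasl2 in knockout-labelled library 1 was also above libraries 2 and 3 when stimulated (25.5 against 14.4 and 4.80 CPM) and when stimulated with niacin (15.3 against 5.32 and 4.06 CPM), where it also passed the lowest wild-type-labelled library at 14.9 CPM. The reason for the place of library 1 was not tested.

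**Figure D3:**
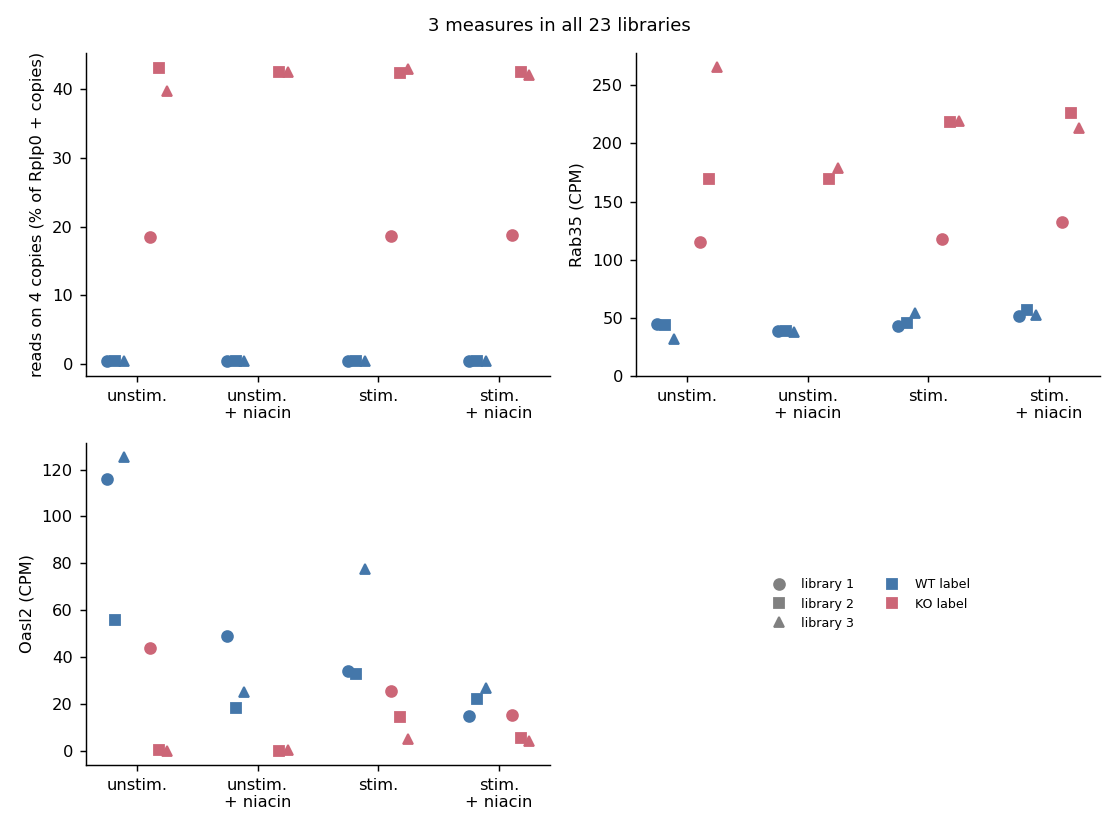
Share of Rplp0-family reads placed on the 4 copies (percent) and levels of Rab35 and Oasl2 (CPM) in all 23 libraries, by culture condition and genotype label. Each point is 1 library and its symbol the library number. Knockout-labelled library 1 sits between the labels in the panels of the read share (18.5, 18.6 and 18.8%) and of Rab35.

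Within 10 Mb of Hcar2, 261 genes were tested, of which 2 were called higher. The 6 genes there at an unadjusted p under 0.001 were 2.30% of the stretch, against 0.148% of all genes and none of the 899 tested genes on the rest of chromosome 5. The groups did not overlap for 38 of the 261, or 14.6%, against 7.43% of all genes tested, 7.68% of the rest of chromosome 5 and 7.30% of other chromosomes. These 38 split into 22 higher and 16 lower under the knockout label, so the stretch did not move in 1 direction. Without library 3 the share was 24.9%, against 14.5% of all genes.

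Among the tested genes within 10 Mb of Hcar2, Nipsnap2, a mitochondrial protein gene at 5.86 Mb, came next by p after the called genes. Nipsnap2 measured 10.2, 12.2 and 12.5 CPM under the knockout label and 21.8, 23.5 and 21.6 CPM under the wild-type label, a log2 fold change of -0.94 ± 0.19 that missed the threshold (edgeR adjusted p = 0.0942). The noncoding Gm13832 had 7, 18 and 10 reads under the knockout label and none in any wild-type-labelled library. Set against the 3 counts that a group total of 0 allows, Gm13832 was at least 12.3-fold higher under the knockout label, for counting error only, and it was not called (adjusted p = 0.141). It overlaps 2 genes on the opposite strand.

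Further non-overlapping genes of the stretch, named after their values were seen, stood on both sides of zero, and none was called. Pebp1, an inhibitor of RAF kinase signalling at -6.58 Mb from Hcar2, measured 57.5, 39.9 and 49.4 CPM under the knockout label and 81.6, 77.9 and 65.1 CPM under the wild-type label (log2 fold change -0.61 ± 0.16). P2rx7, a channel through which extracellular ATP acts on T cells, at -1.22 Mb, measured 55.7, 42.4 and 40.5 CPM against 114, 62.5 and 58.7 CPM (-0.76 ± 0.29). Acad10, at -2.24 Mb, measured 20.6, 15.5 and 17.3 CPM against 14.9, 9.44 and 9.19 CPM (0.67 ± 0.26). Pebp1, P2rx7 and Acad10 had the same sign in the other 3 conditions, at -0.80, -0.51 and -0.62, at -0.64, -0.42 and -0.27, and at 0.52, 0.73 and 0.76. Vsig10, at -6.54 Mb, measured 5.24, 4.64 and 12.2 CPM against 3.56, 1.18 and 0.974 CPM (1.93 ± 0.59), with 2.35, 2.74 and 1.47 in the other conditions. Mapkapk5, a stress-activated kinase, measured 4.02, 3.47 and 19.3 CPM against 2.32, 2.17 and 1.95 CPM, and its log2 fold change of 2.03 ± 0.52 was 0.80 without library 3.

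**Figure D4:**
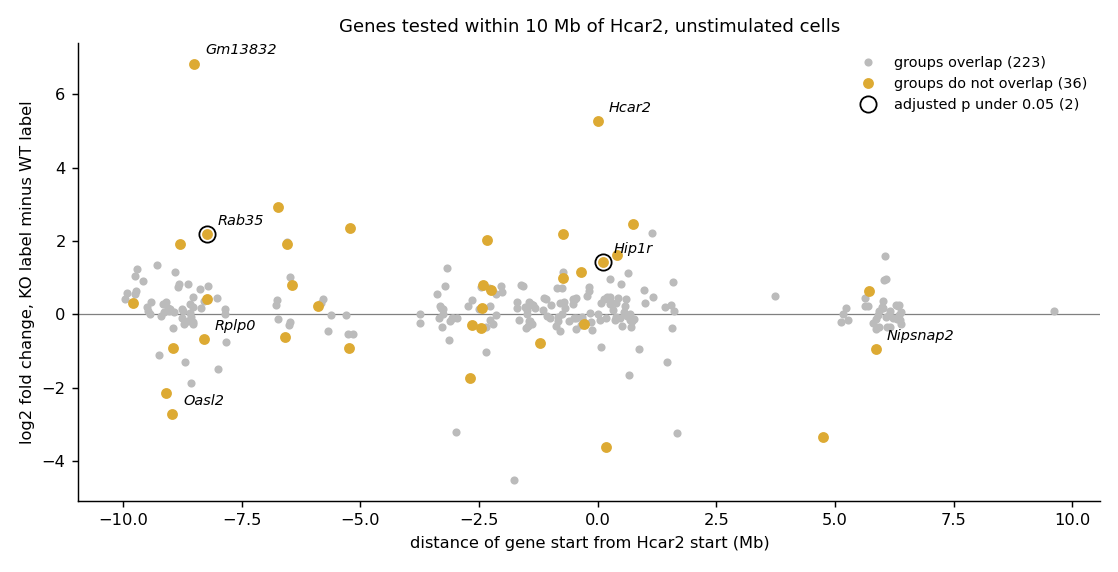
Log2 fold change (knockout label minus wild-type label, y axis) of tested genes within 10 Mb of Hcar2, by distance of their start from that of Hcar2 (x axis, Mb). Yellow marks genes whose groups do not overlap and rings the called genes Rab35 and Hip1r, with 2 of the 261 genes not drawn. The non-overlapping genes lie on both sides of Hcar2 and of the zero line.

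The 38 genes were also measured in the other cultures, in other libraries. These are not known to be independent: under the knockout label the read shares on the Rplp0 copies followed the library number across cultures, so equal numbers may share a mouse. In niacin-treated unstimulated cells, stimulated cells and stimulated cells with niacin, 34, 27 and 27 of the 38 had the same sign, and 23 (60.5%) had it in all 3. Among 1148 non-overlapping genes of other chromosomes, 718, 521 and 455 had the same sign, and 188 (16.4%) in all 3. Over all 15722 tested genes of other chromosomes the share in all 3 was 12.9%, and over all 261 tested genes within 10 Mb of Hcar2 it was 23.8%. Without library 3, 65 genes within 10 Mb did not overlap, and 28 of these (43.1%) had the same sign in all 3. The share was then 13.8% of 2236 non-overlapping genes of other chromosomes.

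The called genes mostly carried over to the other conditions. Genotype label calls numbered 6 of 16882 (0.0355%) in unstimulated cells with niacin, 19 (0.113%) in stimulated cells and 243 (1.44%) in stimulated cells with niacin. In each of these, 6 of the 7 unstimulated calls were called again in the same direction, and Hip1r was the exception. They made up all of the calls in the first condition, 31.6% in the second and 2.47% in the third. The log2 fold change of Rab35 there was 2.18, 1.96 and 1.83. Hip1r stood at 0.68, 0.21 and -0.07. Nipsnap2 stood at -0.85, -0.98 and -1.46 and was called in both stimulated conditions (edgeR adjusted p = 0.0464 and 0.000452). Hcar2, Gm13832 and Rplp0 were called only in stimulated cells with niacin (edgeR adjusted p = 0.0443, 0.0381 and 0.0105), in the same direction as in unstimulated cells.

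**Figure D5:**
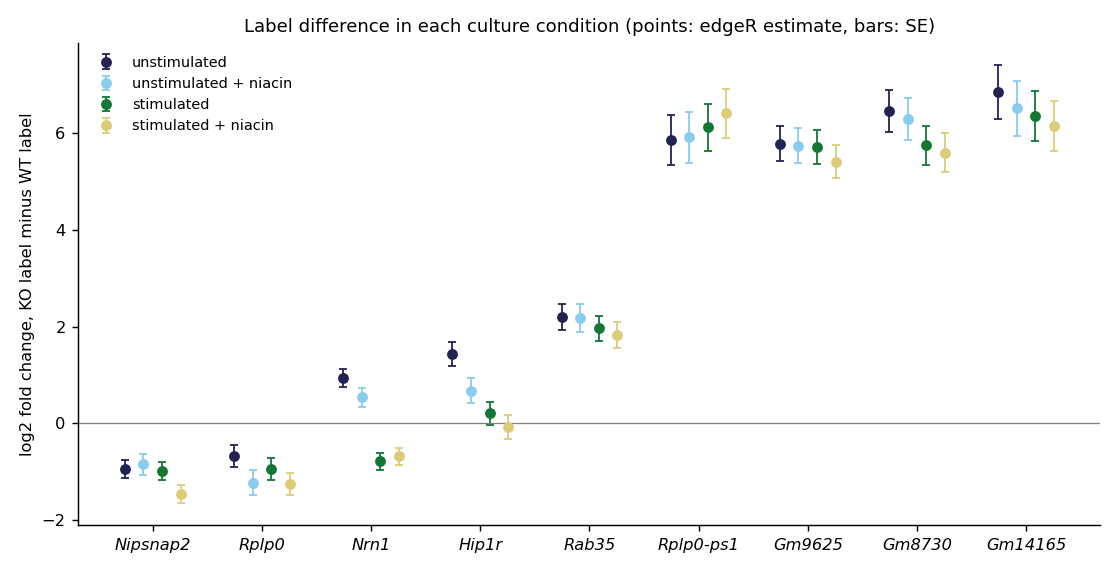
Log2 fold change (knockout label minus wild-type label, y axis) with its SE from edgeR for 9 genes in each culture condition. Rab35 and the Rplp0 copies keep similar values across the 4 conditions, Hip1r falls from 1.43 to -0.07, and Nrn1 lies above 0 without stimulation and below 0 with it.

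Whether the label difference itself depended on the culture was tested directly. Against the mean of the other 3 conditions, no gene (0%) passed edgeR at an adjusted p under 0.05. At an unadjusted p under 0.05 there were 2284 genes, DESeq2 called 46 and limma voom 0. Without knockout-labelled library 1 edgeR called 150, and without library 2 it called 100. The 5 genes with the smallest p were Nrn1, Fzd7, Syde2, Pomt1 and Rac3, and the smallest adjusted p was 0.117. Fzd7, a Wnt receptor, had no read in the knockout-labelled libraries and 16, 7 and 8 reads in the wild-type-labelled ones, at least 9.78-fold lower for counting error only. Syde2 at 2.66 ± 0.62, Rac3 at 2.53 ± 0.54 and Pomt1, a protein O-mannosyltransferase, at 0.50 ± 0.17 (log2 fold change in unstimulated cells) measured at most 21.1 CPM in any of the 6 libraries.

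Against stimulated cells, 1 gene (0.00592%) was called. Nrn1 encodes neuritin, a small surface-anchored protein also made by anergic and regulatory T cells. Unstimulated, Nrn1 measured 13.2, 9.78 and 16.1 CPM under the knockout label and 6.96, 6.00 and 7.33 CPM under the wild-type label, without overlap. Stimulated, it measured 25.2, 21.3 and 19.6 CPM against 37.0, 40.6 and 36.4 CPM, again without overlap and in the opposite order. Fars2 overlaps Nrn1 on the opposite strand. The log2 fold changes were 0.94 ± 0.18 and -0.79 ± 0.17, neither called alone, and their difference was 1.72 (edgeR adjusted p = 0.0156). The call was lost without knockout-labelled library 1 and without wild-type-labelled library 1 or 2. The next genes by p, Zfp385c, Esr1, Nod1 and Gm26789, were not called. Nod1, a sensor of bacterial cell wall fragments, stood at 0.39 ± 0.19 unstimulated, Esr1, the estrogen receptor, at 0.73 ± 0.38, Zfp385c at 1.97 ± 0.92 and Gm26789 at -0.08 ± 0.52.

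The remaining receptors and transporters for these ligands gave no call. Hcar1, the lactate receptor, and Ffar3 had no read in any of the 6 libraries. Ffar2, a short-chain fatty acid receptor, lay between 0.331 and 2.07 CPM (log2 fold change -0.13 ± 1.06). Nnt, a mitochondrial enzyme whose gene is disrupted in the C57BL/6J strain, measured 50.9, 49.0 and 39.9 CPM under the knockout label and 42.8, 50.6 and 31.9 CPM under the wild-type label (log2 fold change 0.16 ± 0.21), so the groups overlapped.

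The cyclic AMP list, through which Hcar2 would signal, had no call among 27 tested genes. Its median log2 fold change was 0.16, or -0.01 without library 3, against -0.01 over all genes. Gnai2, an inhibitory G protein, stood at 0.16 ± 0.15, Prkar1a, a regulatory subunit of protein kinase A, at -0.06 ± 0.10 and Pde3b, a phosphodiesterase, at 0.42 ± 0.26. Pde3b measured 880 CPM in library 3 and 318.0 to 412 CPM in the other 5, so its difference rests on 1 library.

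The type I interferon list had no call among 30 tested genes, and no member was higher without overlap. In 12 of 30 (40.0%) the knockout-labelled libraries all lay below the others, against 4.12% of all genes. The median log2 fold change was -0.44, or -0.27 without library 3. Library 3 was the lowest of the 6 in 25 of the 30, against 6401 of all 16882 genes. Without it, 13 genes (43.3%) lay below without overlap, against 7.21% of all genes. Usp18, which restrains interferon signalling, measured 52.7, 55.5 and 23.4 CPM under the knockout label and 88.9, 69.3 and 72.9 CPM under the wild-type label (-0.81 ± 0.26, edgeR adjusted p = 0.409). Ifit3, an antiviral effector, measured 54.2, 54.6 and 16.6 CPM against 87.2, 72.4 and 99.8 CPM (-1.04 ± 0.44, adjusted p = 0.434). Usp18 and Ifit3 were named after their values were seen. The list's most abundant members included Ifi47 at -0.59 ± 0.29 and Zbp1 at -0.43 ± 0.23. Oasl1 and Oasl2 of this list also lie within 10 Mb of Hcar2. The list median was -0.22, -0.04 and -0.12 in unstimulated cells with niacin, stimulated cells, and stimulated cells with niacin.

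The regulatory T cell list had no call among 20 tested genes. In 6 of 20 (30.0%) the knockout-labelled libraries all lay above the others, against 3.31% of all genes. Without library 3 it was 9 of 20 (45.0%), against 7.27%. Its median log2 fold change was 0.29, or 0.22 without library 3. Foxp3, the lineage's defining transcription factor, measured 176, 160 and 191 CPM under the knockout label and 126, 136 and 109.9 CPM under the wild-type label (0.51 ± 0.15, edgeR adjusted p = 0.409). Nrp1, a surface marker of thymus-derived regulatory cells named after its values were seen, measured 70.1, 58.1 and 98.8 CPM against 32.5, 40.3 and 32.1 CPM (1.11 ± 0.31). Gpr83, a receptor enriched in these cells, measured 90.4, 76.5 and 78.6 CPM against 59.5, 74.8 and 51.3 CPM (0.40 ± 0.14), and the inhibitory receptor Lag3 1.22, 0.818 and 1.45 CPM against 0.249, 0 and 0.424 CPM (2.31 ± 0.65), both likewise chosen by value. Il2ra, the interleukin 2 receptor alpha chain, stood at -0.17 ± 0.23 and Tnfrsf18 at 0.14 ± 0.17, both overlapping. All 6 non-overlapping genes had the same sign in unstimulated cells with niacin, and 3 of them in each stimulated condition. In sorted bulk cells, a larger share of a cell type and more RNA per cell cannot be told apart.

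Other lists moved with library 3. The median of 24 heat shock and immediate early genes was 0.42 with it and -0.10 without it, and that of 16 BCL2 family genes 0.40 and 0.07. Mcl1, a survival factor, measured 2597 CPM in library 3 and 687 to 874 CPM in the other 5. Bcl2 measured 325, 294 and 612 CPM under the knockout label and 284, 246.0 and 248 CPM under the wild-type label (0.66 ± 0.20, edgeR adjusted p = 0.409). Of the genes of naive and quiescent T cells, Klf2, a factor that keeps T cells at rest, measured 7190 CPM in library 3 and 1189 to 1644 CPM elsewhere, and its log2 fold change was 1.27 with that library and 0.02 without it. Tcf7 and Ets1 stood at 0.09 ± 0.15 and -0.28 ± 0.13. The median over 24 genes of that list was -0.05, or -0.10 without library 3.

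No gene was called among 29 genes of T cell activation, 16 of Th1, 13 of Th2, 10 of Th17 and 13 of follicular helper cells, 34 of the cell cycle, 22 of glycolysis, 37 nuclear genes of oxidative phosphorylation or 21 of NAD metabolism. Their medians lay between -0.22 (glycolysis) and 0.08 (follicular helper cells and NAD metabolism), and without library 3 between -0.15 (glycolysis) and 0.32 (follicular helper cells). In 4 of the 13 follicular helper genes (30.8%) the knockout-labelled libraries 1 and 2 lay above all wild-type-labelled ones, against 7.27% of all genes. The list medians were -0.14 over 24 genes of T cell receptor signalling, 0.17 over 19 cytokines and -0.16 over 83 cytosolic ribosomal proteins, or -0.03, -0.06 and -0.05 without library 3, without a call. Library 1 stood apart from libraries 2 and 3 under both labels in some lists. The mean log2 CPM of cell cycle genes was 7.02 in knockout-labelled library 1 and 7.17 in wild-type-labelled library 1, against 6.30 to 6.52 in the other 4, and that of cytokines was 3.12 and 3.17 against 2.51 to 2.55. Most markers of other cell types were low, and Ighm was the highest at 408 to 1103 CPM. Tcrg-C1 measured 26.4 to 50.5 CPM, Tcrg-C2 31.1 to 52.8 CPM, Prf1 19.5 to 35.5 CPM and Cd74 14.7 to 61.6 CPM. The 14 NK and gamma delta T cell genes summed to 130.8 to 164.5 CPM under the knockout label. Under the wild-type label they summed to 142.0 to 199.9 CPM. Summed over 18 myeloid and dendritic cell genes the level was 29.1 to 63.0 CPM under the knockout label and 26.3 to 97.9 CPM under the wild-type label, with Clec9a and Elane at 0 in all 6 libraries. Over 14 B cell genes it was 420.2 to 844.7 and 867 to 1116 CPM, nearly all from Ighm, with Pax5 at 0 throughout. Igkc was 20.4 CPM in knockout-labelled library 1 and 51.4 CPM in wild-type-labelled library 1, and at most 1.06 CPM in the other 4. The part of these cells in the results was not tested.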

How the data were processed

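RNA of the sorted cells was amplified with SMART-seq V4 and sequenced as pairs of 50-base reads, per the labels' protocols. The submitters' processing notes name Trimmomatic 0.38, STAR 2.7.0e, featureCounts 1.6.3 and the builds GRCm38.p5 and mm10. The deposited table gives the authors' raw counts per gene for 53379 gene IDs and 23 libraries. The sources used here give neither its strand nor its multi-mapping setting. Symbols came from GENCODE vM21, which matched 53274 IDs.

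The test was edgeR 4.0.16 (quasi-likelihood, TMM, filterByExpr with a minimum count of 10, Benjamini-Hochberg) in R 4.3.3, with all 23 libraries in 1 fit and a mean per group; DESeq2 1.42.0 and limma 3.58.1 were alternatives. The script was tested on simulated data. CPM use the effective library sizes, and the SE is the log2 fold change over the root of F. Text names Hcar2, Hcar1, Ffar2 and Nnt, every called gene, called or up to 3 most abundant members of the lists described, the 5 genes with smallest p near Hcar2 and in each difference between conditions, and others said to be chosen by value; some genes this rule takes in are not reported here. Intervals cover counting error only. Members and lists were chosen with earlier results of these data known.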

Additional observations from a re-analysis of the deposited data

Results flagged for a closer look

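The genotype label difference of Nrn1 was not the same in unstimulated and stimulated cells: the unstimulated minus stimulated difference of log2 fold changes was 1.72 (edgeR adjusted p = 0.0156). Nrn1 was higher in 3 of 3 knockout-labelled libraries without stimulation and lower in 3 of 3 with it. Neither label difference was called alone (edgeR adjusted p = 0.0740 and 0.0964), and leaving out some single libraries lost the call.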

How the results depend on the processing

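DESeq2 called 22 genes (17 higher, 5 lower) where edgeR called 7, no filter on low counts gave 673, and leaving out 1 library gave 6 to 342, the highest without knockout-labelled library 2. The calls of Gm8730 and Gm9625 held in all 15 alternatives, those of Gm14165 and Rplp0-ps1 in 14, Rab35 in 13 and Hip1r in 7. Rab35 and Hip1r were not called when only the 6 compared libraries were fitted, with or without the replicate block. Gm14165 and Rplp0-ps1 were lost only with the replicate block in those 6 libraries. Against the mean of the other conditions, 0 calls became 46 with DESeq2 and 770 with no filter, and 0 to 150 with 1 library left out; against stimulated cells, 1 call became 6 and 457, and 0 to 1. Over all genes, the deviations of same-numbered libraries of the 2 labels correlated at -0.02, 0.07 and -0.16. Both libraries 1 were high in cell cycle and cytokine genes, and knockout-labelled library 3 stood apart from all others. The correlations therefore cannot decide whether equal numbers mark pairs. In the main fit the numbers were not taken as pairs. The replicate block gave 8 calls with all libraries and 2 with the 6 compared libraries, where those alone gave 5. Uncalled values changed sign, and the cause was not tested. With the replicate block Ffar2 was 0.15, or 0.29 in the 6 libraries. With limma voom, Ffar2 was 0.67, Gm26789 0.066, Gnai2 -0.0073, Pde3b -0.24, Tcf7 -0.088, Il2ra 0.084 and Mcl1 -0.018. Removing each library's GC trend, chosen after seeing the data, kept all 7 calls and gave Gm26789 0.087, Gnai2 -0.054 and Prkar1a 0.11. In the 5 compared libraries without knockout-labelled library 3, also added later, 6 genes were called, and Gm26789 was 0.13, Gnai2 -0.042, Pde3b -0.23, Tcf7 -0.039, Il2ra 0.12, Mcl1 -0.022 and Arf6 -0.037. With 1 library left out, Arf6 ranged from -0.056 to 1.40, Ffar2 from -0.54 to 1.02, Gm26789 from -0.26 to 0.26, Gnai2 from -0.061 to 0.30, Il2ra from -0.46 to 0.10, Mcl1 from -0.040 to 1.103, Nnt from -0.0013 to 0.32, Pde3b from -0.24 to 0.67, Tbc1d10c from -0.0088 to 0.61 and Tcf7 from -0.058 to 0.23. Hcar2 had 50 reads in all under the knockout label, so counting error limits its ratio.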
